A study of Drosophila melanogaster with 8 samples.

Results

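Animals handle copper, zinc and iron with a small set of proteins, and 10 genes for such proteins were followed here in the heads of fed and starved flies. They were the metallothionein genes MtnA, MtnB, MtnC and MtnD, the ferritin genes Fer1HCH and Fer2LCH, the transferrin genes Tsf1, Tsf2 and Tsf3, and the metal transporter gene Mvl. They were found by their symbols in the deposited table, which held all 10 among its 17518 named genes. RNA came from whole heads of adult males of the white-eyed strain w1118, aged 1 to 3 d, that spent 1 day on food or under starvation. Each condition had 4 biological samples, each pooled from a group of 30 flies, and the genotype was the same in both. Poly(A)+ libraries were sequenced and reads were counted on each gene as a whole. The total per library lay between 47936038 and 53168449 counts.

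Metallothioneins are small cysteine-rich proteins that bind copper, zinc and cadmium, and in flies their genes are switched on by the metal-responsive factor MTF-1 when these metals are in excess. Ferritin stores iron in a cage built of heavy and light chains, and in insects most of it lies in the secretory pathway and the blood (hemolymph) rather than in the cytosol. Transferrins carry iron outside cells, and Tsf1, the main one of fly hemolymph, is made largely by the fat body, the insect counterpart of liver and adipose tissue. Mvl (Malvolio) belongs to the NRAMP family of transporters, which bring divalent metal ions across membranes.

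Under starvation Tsf1 RNA was lower, ferritin RNA of both chains and MtnA RNA were higher, and Mvl RNA was slightly lower. Tsf1 changed most, at 2.53-fold lower, while MtnA was 1.48-fold higher, Fer1HCH 1.31-fold and Fer2LCH 1.24-fold. In all, 8 of the 10 genes had enough counts for the test, since MtnB and MtnC did not pass the filter on low counts. Values are CPM, a gene's counts per 1000000 counts of its library after TMM normalization, and differences were tested in edgeR by quasi-likelihood, with p-values adjusted by Benjamini-Hochberg over the 12048 genes tested. At an adjusted p under 0.05, 3 of the 8 were higher and 2 lower, against 10.04% higher and 16.7% lower among all genes tested. These shares stand for 1210 and 2012 genes, and scaling by the upper quartile gave 2292 and 1543. The median log2 fold change of the 8 was 0.06, against -0.01 over all genes tested. With the study's added threshold of a 2-fold change, 0 were higher, since the largest rise was that of MtnA, and 1 was lower (Tsf1), against 0.930% and 5.37% of all genes tested. For 3 of the 8 genes every starvation library lay above every food library, and for 2 every one lay below, as was found for 12.6% and 18.6% of all genes tested.

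**Figure D1:**
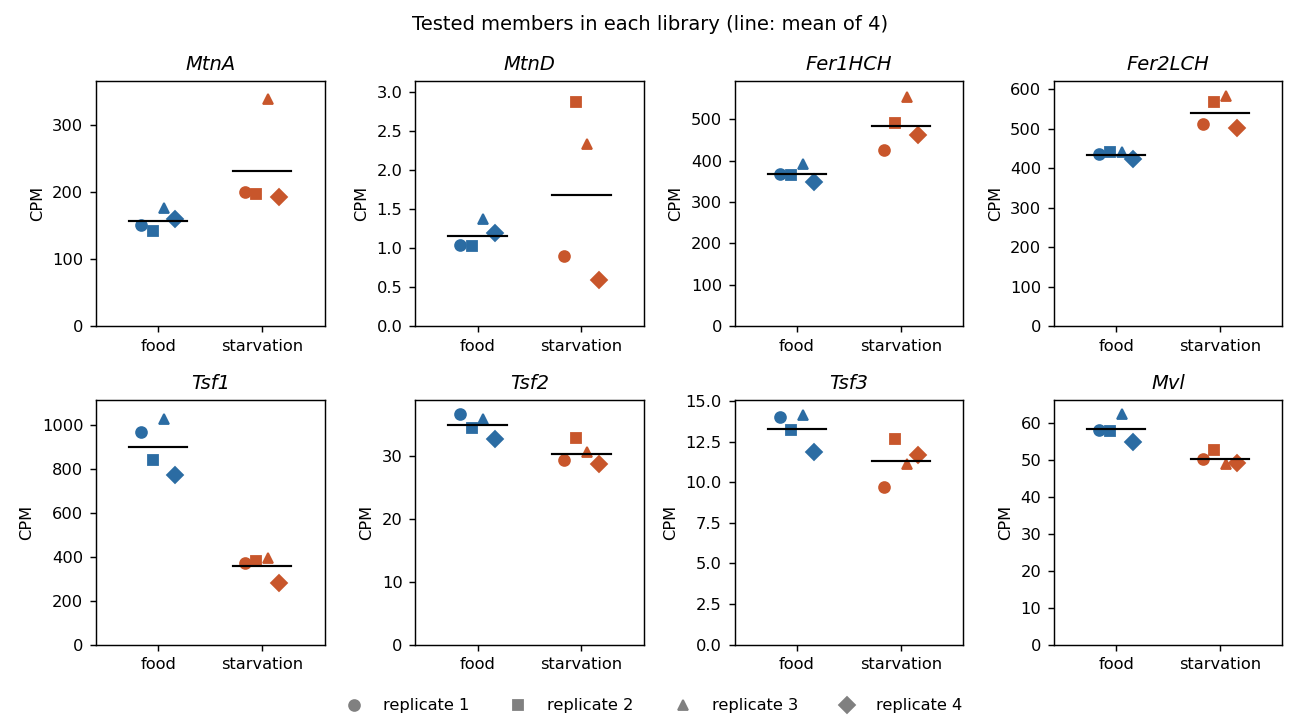
CPM of the 8 tested genes in each library, with food in blue, starvation in orange, marker shapes for replicate numbers and a line at the mean of 4; each axis starts at 0. Tsf1 lies between 771 and 1027 CPM on food and between 280.5 and 393 under starvation, and the MtnA value of starvation replicate 3 stands at 339 CPM above the rest.

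1 library was apart from the others. In starvation replicate 3 25.6% of all counts fell on the 10 genes with most counts, compared with 17.7% to 20.3% elsewhere. Its deviation from the mean of its condition also fell with exonic length across genes (Spearman correlation -0.54, a description over 12048 genes). Results for the members are therefore given with and without it where it changes them most. Markers of the cells of a head were present, with photoreceptor markers summing to between 15620 and 17380 CPM on food and 18510 to 21760 under starvation. Neuron markers summed to 4084 to 4707 and 3182 to 4933 CPM. Gut markers, which could enter from the body, summed to at most 29.2 CPM.

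Between genes, levels were compared as CPM per kilobase of exonic sequence. This length is that of the whole gene. The length of the transcripts in use was not measured, so the order between genes depends on this choice. On food the order among the 4 abundant genes was Tsf1, with a mean of 316 CPM per kilobase, then Fer2LCH with 264, MtnA with 225 and Fer1HCH with 155. Under starvation the means were 332 for MtnA, 328 for Fer2LCH, 203 for Fer1HCH and 125 for Tsf1. The place of MtnA rested on starvation replicate 3, since Fer2LCH was above it in the other 3 starvation libraries, where the means were 320 for Fer2LCH, 281 for MtnA, 193 for Fer1HCH and 121 for Tsf1. Tsf1 thus moved from the highest to the lowest of these genes. Its food libraries ran from 270 to 360 CPM per kilobase and lay above those of Fer2LCH (257 to 267), whereas its starvation libraries, from 98.3 to 138, lay below those of Fer1HCH (179 to 233). With all 4 starvation libraries MtnA and Fer2LCH overlapped, with MtnA between 276 and 484 CPM per kilobase and Fer2LCH between 304 and 354. All 4 genes had a higher level per kilobase than at least 96.9% of the genes tested.

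The other members were far lower per kilobase. Averaged over all 8 libraries, Tsf2 had 11.3 CPM per kilobase, Mvl 9.61, Tsf3 5.18 and MtnD 5.16. Tsf2 was above Mvl in all 8 libraries, but their ranges over libraries overlapped, and Tsf3 and MtnD did not keep 1 order, since MtnD was higher in 2 of the 4 starvation libraries. MtnB and MtnC were at 0.144 and 0.0995 CPM per kilobase and overlapped.

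**Figure D2:**
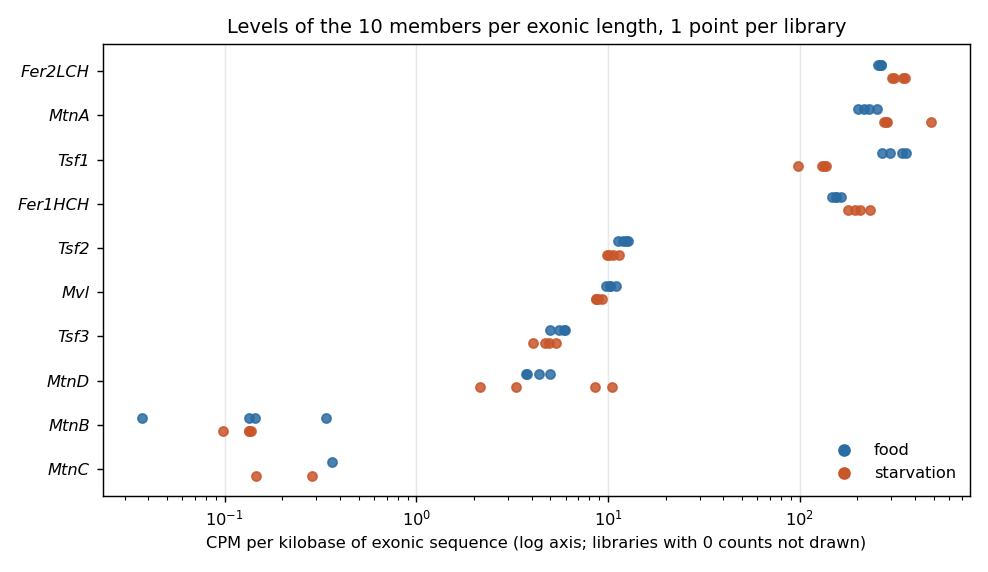
Level of each of the 10 genes in CPM per kilobase of exonic sequence on a log axis, 1 point per library, with food in blue and starvation in orange; libraries with 0 counts are not drawn. Fer2LCH, MtnA, Tsf1 and Fer1HCH lie at 98.3 or above in every library, and MtnB and MtnC lie at 0.364 or below.

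MtnA lies on chromosome 3R from 9783407 to 9784370 (release 6 of the Drosophila genome), has 700 bases of exonic sequence and overlaps no other gene of the table. It encodes the metallothionein with the most reads in these heads. On food it had 151, 141.5, 177 and 161 CPM in replicates 1 to 4, and under starvation 200, 197, 339 and 193 CPM. All starvation libraries lay above all food libraries, and replicate 3 was far above the other starvation libraries. The means were 157.5 ± 15.02 CPM on food and 232 ± 71.1 under starvation (n = 4, SD). The log2 fold change was 0.56 (standard error, SE, 0.18, 95% confidence interval, CI, 0.17 to 0.95), with an edgeR adjusted p of 0.036. Without starvation replicate 3 the log2 fold change was 0.32, with a smaller standard error of 0.07 and an adjusted p of 0.0054 in edgeR. That library is the one whose deviation fell with exonic length, and MtnA is short. With the length trend taken out of all 8 libraries the log2 fold change was 0.59 (SE 0.12, edgeR adjusted p = 0.00285). Leaving out food replicate 1, 2, 3 or 4 ended the call (edgeR adjusted p of 0.098, 0.11, 0.051 and 0.077), with log2 fold changes from 0.51 to 0.62.

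MtnB, MtnC and MtnD lie on 3R between 20360308 and 20535301 with MtnE, a further metallothionein gene, and apart from MtnA. MtnD lies from 20534962 to 20535301 and lies 21 bases from Stat92E. It had 1.04, 1.02, 1.37 and 1.19 CPM on food and 0.902, 2.87, 2.33 and 0.587 under starvation. Starvation replicates 2 and 3 were thus above every food library, while replicates 1 and 4 were below every food library. The means were 1.15 ± 0.16 and 1.67 ± 1.10 CPM (n = 4, SD). The log2 fold change was 0.54 (SE 0.43, edgeR adjusted p = 0.41), with a 95% CI from -0.40 to 1.48, on both sides of no change. It was 0.14 without starvation replicate 2, 0.34 without replicate 3 and 0.85 without replicate 4, with none past the threshold.

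MtnB, from 20503102 to 20503746, had 1, 10, 4 and 4 counts in the food libraries and 4, 3, 4 and 4 in the starvation libraries. MtnC, from 20360308 to 20360634, had 5 counts in food replicate 3 and 0 in the other food libraries, and 0, 4, 0 and 2 under starvation. A count of 0 allows up to 3 counts, which is 0.0575 to 0.0648 CPM in these libraries, for counting error only. A difference between conditions was not detectable for either gene at this depth, and no fold change is given.

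The 2 metallothionein genes outside the named 10 were also measured. MtnE, from 20534021 to 20534704 on 3R, had between 0.146 and 0.728 CPM on food and between 0.665 and 1.23 under starvation (log2 fold change 0.68, SE 0.41, edgeR adjusted p = 0.27). MtnF, listed as CG43222, had 8.64 ± 1.08 and 9.60 ± 2.86 CPM (n = 4, SD), a log2 fold change of 0.15 (edgeR adjusted p = 0.615) that turned to -0.07 without starvation replicate 3. MtnA therefore held nearly all metallothionein counts, at 93.2% to 94.5% of the sum over the 6 genes on food and 94.8% to 95.2% under starvation. Because reads were counted per gene, reads shared between such related genes could have been split between them. MTF-1, the gene for the factor that switches on metallothionein genes, had 39.0 ± 2.88 and 35.7 ± 1.19 CPM (log2 fold change -0.13, edgeR adjusted p = 0.23).

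Both ferritin genes lie side by side on 3R, Fer1HCH from 30385573 to 30388178 and Fer2LCH from 30387804 to 30390584. Their outer bounds share 375 bases, so reads from that stretch could have been counted on either gene if the counting ignored strand, which is not given in the sources used here. Fer1HCH encodes the heavy chain, which oxidizes iron as it enters the cage. It had 367, 365, 392 and 349 CPM on food and 426, 490, 554 and 463 CPM under starvation. The lowest starvation library was above the highest food library. The means were 368 ± 17.8 and 483 ± 54.1 CPM (n = 4, SD), with a log2 fold change of 0.39 (SE 0.10, 95% CI 0.18 to 0.60, edgeR adjusted p = 0.012).

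Fer2LCH encodes the light chain, around which iron is laid down in the cage. It had 435, 440, 440 and 423 CPM on food and 512, 567, 583 and 501 CPM under starvation. The food libraries lay within a narrow band and all starvation libraries lay above it. The means were 434.5 ± 7.98 and 541 ± 40.5 CPM (n = 4, SD), with a log2 fold change of 0.32 (SE 0.08, 95% CI 0.13 to 0.50, edgeR adjusted p = 0.016). Fer1HCH kept its call when each library was left out. Fer2LCH lost it narrowly without food replicate 1, 2 or 4 or starvation replicate 2, with edgeR adjusted p-values from 0.0502 to 0.053 and log2 fold changes from 0.29 to 0.32.

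The heavy and light chains rose together. The ratio of Fer1HCH to Fer2LCH per exonic base was 0.586, 0.576, 0.618 and 0.572 on food and 0.577, 0.599, 0.659 and 0.641 under starvation. The conditions overlapped in this ratio. They also overlapped in the ratio of counts, which was 0.825 to 0.891 on food and 0.832 to 0.95 under starvation. Fer1HCH messages are known to carry, in some transcripts, an iron-responsive element that iron regulatory protein 1A binds to hold back translation, so RNA levels alone do not give the protein. Fer3HCH, the gene for mitochondrial ferritin, had at most 6 counts in a library and was not tested.

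Of 6 photoreceptor markers, 5 moved in the direction of the ferritin genes and MtnA, and 1, norpA, went the other way (log2 fold change -0.13). At an adjusted p under 0.05, 3 of the 6 were higher and the other 3 did not pass, with a median log2 fold change of 0.27. Their summed level in each starvation library was above that in each food library. Most of this sum was ninaE, with means of 11450 and 13960 CPM, which did not pass the threshold (edgeR adjusted p = 0.082). Whether a larger share of RNA from photoreceptors took part in the rise of MtnA, Fer1HCH and Fer2LCH was not tested.

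Tsf1 lies on the X chromosome from 18387084 to 18390344 and overlaps no other gene of the table. It had 970, 840.5, 1027 and 771 CPM on food and 373, 381, 393 and 280.5 CPM under starvation. The highest starvation library was far below the lowest food library. The means were 902 ± 117 and 357 ± 51.5 CPM (n = 4, SD), with a log2 fold change of -1.34 (SE 0.13, 95% CI -1.63 to -1.04, edgeR adjusted p = 3.8e-05). In an exact two-sided permutation test of its CPM, p was 0.0286, the smallest that 4 samples against 4 allow. By the size of its fold change Tsf1 ranked 472 among the 12048 genes tested. It kept its call in all 18 alternatives, with log2 fold changes from -1.41 to -1.21, but edgeR's test against a 2-fold change itself did not call it (adjusted p = 0.11).

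Markers of fat body, where Tsf1 is made, were also lower. Of 7 markers, 6 could be tested and 5 were lower at an adjusted p under 0.05, with log2 fold changes of -8.03 for Lsp2, a storage protein gene, -2.81 for apolpp, the gene of the main lipoprotein, -2.46 for the lipid droplet gene Lsd-1, -1.14 for FASN1, a fatty acid synthase gene, and -0.75 for Apoltp, a lipid transfer protein gene. Fbp1 was at 0.24 CPM or less in every library and Fbp2 was at 0 in 4 of 8. The summed level of the list was 6432 to 10630 CPM on food and 953 to 1327 under starvation. Within the food group, replicate 4 had the lowest Tsf1 and also the lowest value of Lsp2, apolpp, Apoltp, Lsd-1 and FASN1. This was not particular to fat body markers. Food replicate 4 was also lowest for Fer1HCH, Fer2LCH, Tsf2, Tsf3 and Mvl, and for the hemocyte markers Hml, NimC1, eater and Sr-CI. It was not lowest for MtnA, MtnD or the hemocyte marker Pxn. The starvation libraries repeated the match of Tsf1 with fat body markers only in part. Replicate 4 had the lowest Tsf1 and Lsd-1, but Lsp2 was lowest in replicate 2. The genes apolpp, Apoltp and FASN1 were lowest in replicate 3, where Tsf1 was highest. That library is the one whose deviation fell with exonic length. These genes have 11766, 13330 and 8744 exonic bases, against 2854 for Tsf1. Whether length placed them lowest in that library was not tested. Among shorter markers, Lsd-1 (1960 exonic bases) was lowest in the same library as Tsf1, whereas Lsp2 (2477 exonic bases) was not. For apolpp, replicate 3 was at 397 CPM and replicate 4 at 401. In samples of whole heads, fewer cells of a type and less RNA per cell cannot be told apart, and the part of fat body in the fall of Tsf1 was not tested.

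Hemocyte markers moved the same way, with all 5 lower at an adjusted p under 0.05. Of these, 4 were also past 2-fold, and the median log2 fold change was -2.16. Their summed level was 205 to 351 CPM on food and 94.3 to 163 under starvation. Much of this sum was Pxn, which fell least (log2 fold change -0.37, means of 138 and 107 CPM). Glial markers were lower by less, with all 5 past the threshold and a median log2 fold change of -0.49. Of these, moody and alrm passed narrowly (edgeR adjusted p = 0.0498 and 0.0481), and the conditions overlapped for moody. Muscle markers summed to 4685 to 6010 CPM on food and 3642 to 5227 under starvation. Of 5 muscle markers, 4 had a negative log2 fold change, and all 5 did not pass the threshold. Whether these cell types took part in the difference in Tsf1 was likewise not tested.

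**Figure D3:**
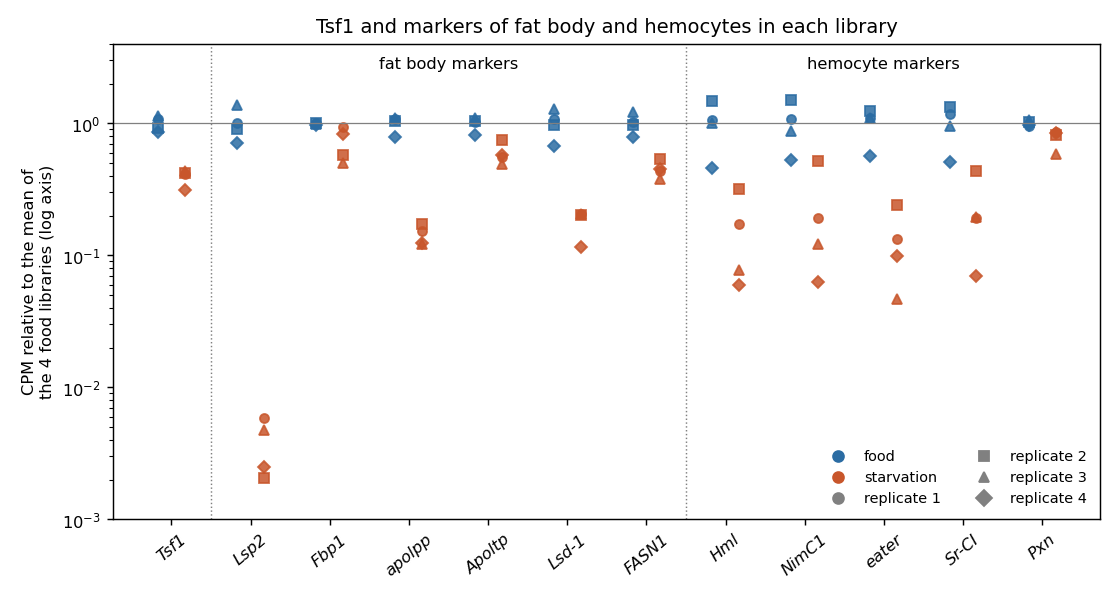
CPM of Tsf1, 6 fat body markers and 5 hemocyte markers in each library, divided by the mean of the 4 food libraries and drawn on a log axis, with food in blue, starvation in orange and marker shapes for replicate numbers. Tsf1 falls less than Lsp2, apolpp and Lsd-1 and more than Apoltp, matching log2 fold changes of -1.34 for Tsf1, -8.03, -2.81 and -2.46 for the first genes and -0.75 for Apoltp.

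The genes whose pattern over the 8 libraries was most like that of Tsf1 were Idh and CG3902, by the root mean square difference of log2 CPM after each gene's own mean was taken off, among genes with a mean of at least 1 CPM. The difference was 0.07 on the log2 scale for Idh and 0.08 for CG3902. Idh, which encodes an isocitrate dehydrogenase, had 446 ± 56.1 CPM on food and 176 ± 23.6 under starvation. CG3902 had 434 ± 64.0 and 159 ± 29.7 CPM (n = 4, SD).

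Tsf2 and Tsf3, the other transferrin genes, were lower by much less and did not pass the threshold. Tsf2 encodes a membrane-bound transferrin of the melanotransferrin type that flies need for their septate junctions. It lies on 3L from 12530436 to 12533724 and had 36.7, 34.4, 35.8 and 32.6 CPM on food and 29.3, 32.9, 30.6 and 28.6 under starvation. Starvation replicate 2 reached just above food replicate 4, so the groups overlapped at their edges. The log2 fold change was -0.20 (SE 0.07, edgeR adjusted p = 0.060). Without starvation replicate 2 or 3 it was -0.24 and -0.20 with edgeR adjusted p-values of 0.046 and 0.040, past the threshold.

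Tsf3 lies on 2R from 16226501 to 16229869, wholly within the bounds of CG15706, from 16223218 to 16230680. It had 14.02, 13.2, 14.2 and 11.9 CPM on food and 9.70, 12.7, 11.1 and 11.7 under starvation. The groups overlapped, since starvation replicate 2 was above food replicate 4, and the log2 fold change was -0.24 (SE 0.10, edgeR adjusted p = 0.11). CG15706 itself had a log2 fold change of -0.27 (edgeR adjusted p = 0.024), and without strand in the counting the reads of the pair could have been mixed. The difference between Tsf1 and the other transferrin genes in their response was not tested.

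Mvl lies on 3R from 21051383 to 21060800 and encodes the fly NRAMP transporter, which was found through a defect in taste behaviour and carries iron, manganese and copper. It had 58.1, 57.8, 62.5 and 54.9 CPM on food and 50.3, 52.7, 48.8 and 49.0 under starvation. Every starvation library was below every food library, though by a small step. The means were 58.3 ± 3.14 and 50.2 ± 1.78 CPM (n = 4, SD), and the log2 fold change was -0.22 (SE 0.07, 95% CI -0.36 to -0.07, edgeR adjusted p = 0.034). The call was lost in 9 of 18 alternatives, among them those without food replicate 1, 2 or 3 or starvation replicate 1 or 4 (log2 fold changes from -0.22 to -0.18) and the replicate block (edgeR adjusted p = 0.056), and with upper-quartile normalization the log2 fold change was -0.10.

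**Figure D4:**
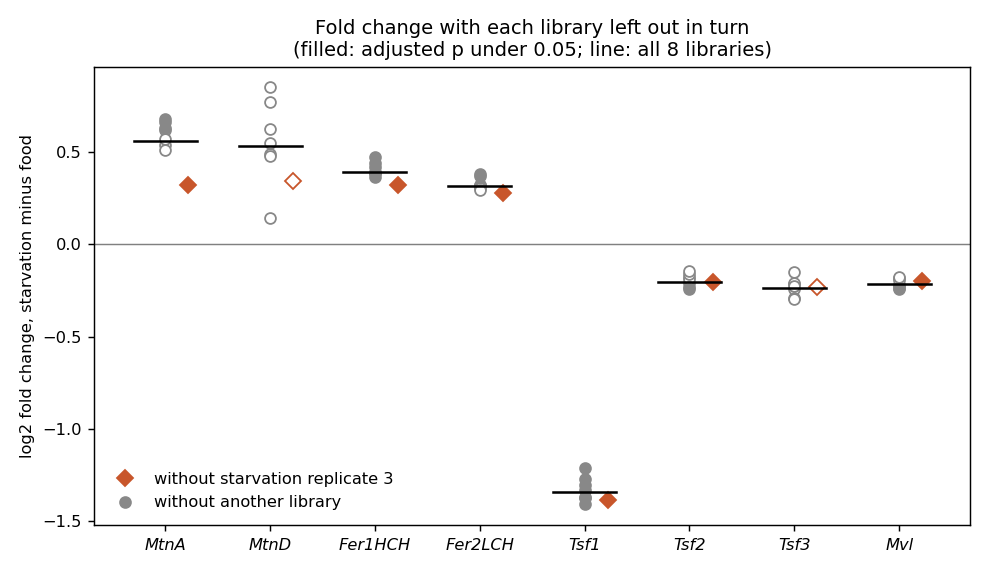
Log2 fold change (starvation minus food) of the 8 tested genes with each library left out in turn; circles are 7 of the libraries, orange diamonds starvation replicate 3, filled markers pass an adjusted p under 0.05, and lines show all 8 libraries. MtnA drops from 0.56 to 0.32 without starvation replicate 3, and Tsf1 stays between -1.41 and -1.21.

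Other genes that handle copper, zinc, iron, iron-sulfur clusters and heme were read in the same fit, in 5 lists with 47 genes of the table beside the members. Of the 41 that could be tested, 18 were lower (43.9%, against 16.7% of all genes tested) and 4 were higher (9.76%, against 10.04%). Their median log2 fold change was -0.20, against -0.01 for all genes tested. The lists were chosen with earlier results of these data known, so these shares are a description, and no set test was run. Without starvation replicate 3, 22 were lower, while scaling by the upper quartile, under which the median of all genes stood at 0.10, left 11 lower.

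Among copper genes, 3 of 5 tested were lower and the other 2 did not pass the threshold. Ctr1B, a copper importer gene of the cell membrane that MTF-1 is known to switch on when copper is scarce, had 8.52 ± 0.64 CPM on food and 3.58 ± 0.53 under starvation (n = 4, SD). Its log2 fold change was -1.25 (SE 0.12, edgeR adjusted p = 3.4e-05), and it was the only gene of the 5 lists past 2-fold. ATP7, which encodes the copper pump of the secretory pathway, had a log2 fold change of -0.65 (edgeR adjusted p = 8.3e-04). The importer gene Ctr1A was at -0.29 (edgeR adjusted p = 0.011).

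Among zinc transporter genes, 7 of 14 tested were lower and 1 was higher. The largest falls were those of ZnT77C (-0.96), Zip89B (-0.81), an uptake transporter gene of the gut, and ZnT41F (-0.52). The 1 that rose was Zip99C, named after its values were seen, at 0.48 (SE 0.08, edgeR adjusted p = 8.4e-04). It encodes the fly ZIP13 protein, which has been described in flies as bringing iron into the secretory pathway, where ferritin is loaded.

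In the iron list, 3 of 7 tested genes beside Mvl were lower and the other 4 did not pass the threshold. They were Mco1 (-0.98), which encodes a multicopper oxidase, nemy (-0.61), a cytochrome b561 gene, and Irp-1B (-0.42), a gene for an iron regulatory protein. Irp-1A, which encodes the RNA-binding regulator of ferritin translation, had a log2 fold change of 0.05 (edgeR adjusted p = 0.72). Of 7 iron-sulfur genes, Fdx1, a ferredoxin gene, was higher at 0.48, and Fdx2, the other ferredoxin gene, was lower at -0.43, a call lost in 10 of 18 alternatives.

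Of 8 heme genes, 4 were lower and 2 were higher. Alas, which encodes the enzyme that starts heme synthesis, rose by 0.33 (SE 0.08, edgeR adjusted p = 0.0083), and Ho, the heme oxygenase gene that releases iron from heme, rose by 0.31 (edgeR adjusted p = 0.034), the latter named after its values were seen and with its call lost in 6 of 18 alternatives. Coprox (-0.46) and FeCH (-0.42), genes of later steps of heme synthesis, had the largest falls.

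**Figure D5:**
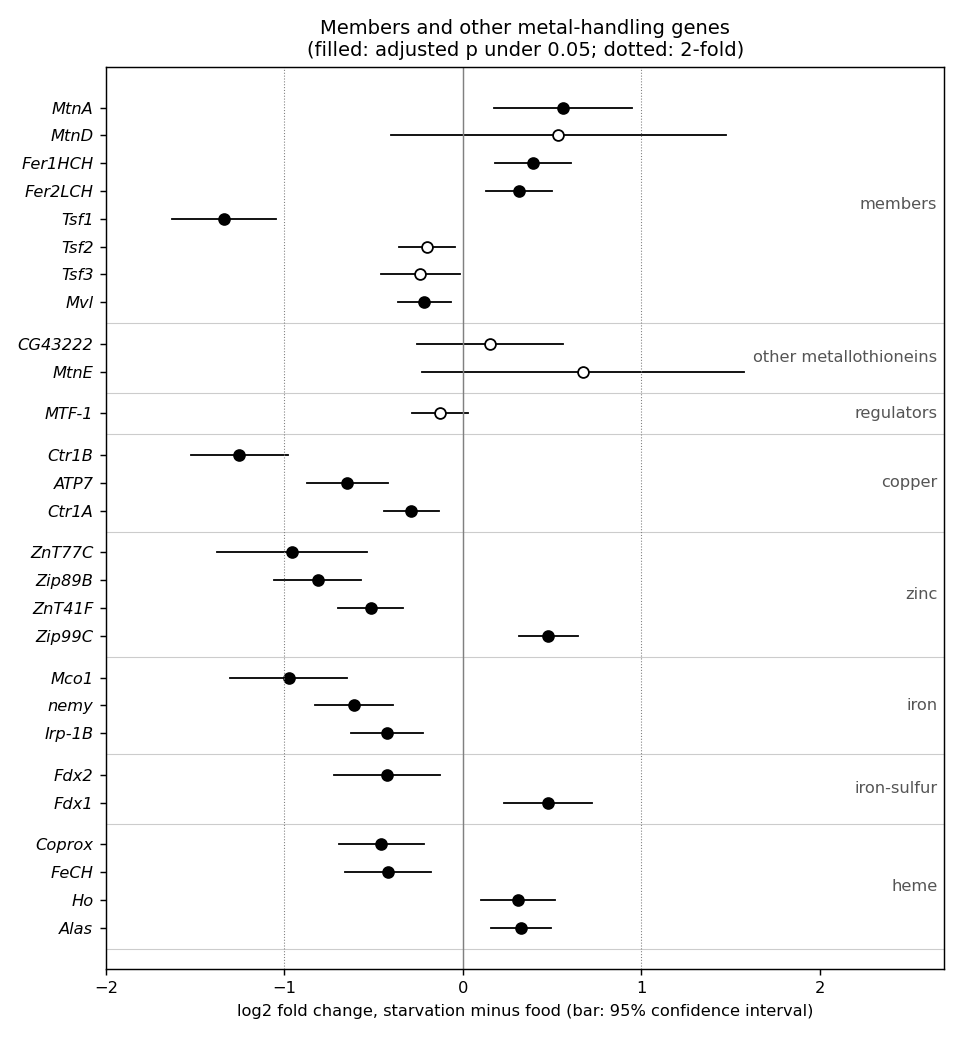
Log2 fold change (starvation minus food, horizontal axis) of the tested members and of other metal-handling genes, with 95% confidence intervals; filled points pass an adjusted p under 0.05 and dotted lines mark a 2-fold change. Tsf1 at -1.34 and Ctr1B at -1.25 lie farthest to the left, and MtnA, both ferritin genes, Zip99C, Fdx1, Alas and Ho lie to the right of 0.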

How the data were processed

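The authors mapped paired-end reads from fly heads with STAR 2.6.1b, merged both flow cells of a sample and deposited unnormalized read counts of each gene from ASpli, with gene coordinates and exonic length on release 6 of the genome. Conditions came from the sample titles. Of the table, 17518 named genes were used, and 1 row without a name, with 0.00418% to 0.00541% of a library's counts, was left out (0 columns had no sample). Whether the samples were taken on separate days is not given in the sources used here, so p-values measure the spread between these samples.

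From the deposited counts, 12048 genes passed edgeR's filterByExpr and were fitted by quasi-likelihood with TMM factors (edgeR 4.0.16, R 4.3.3) and Benjamini-Hochberg adjustment. Each standard error was the log2 fold change over the root of its F. A call needed an adjusted p under 0.05, and a stricter one 2-fold as well. The step was tested on simulated data. Library totals of 47936038 to 53168449 counts left little counting error except in the genes with few counts.

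The genes and lists were chosen with earlier results of these data known. Named genes are the 10 members, MtnE, MtnF, Fer3HCH and MTF-1, the 3 largest changes past the threshold in each list, all past 2-fold, the 2 genes most like a member that passed 2-fold, and overlapping genes. MtnF was matched as CG43222 through RefSeq names. Alternatives were RLE and upper-quartile factors, removal of the 10 most abundant genes, DESeq2 1.42.0, limma-voom (limma 3.58.1), edgeR's exact test, a replicate block, no filter, a filter at 10 counts on average in either condition, a trend with exonic length taken out, each library left out, and a test against 2-fold. Promoter motifs and protein sequences were not analysed here.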

Additional observations from a re-analysis of the deposited data

Results flagged for a closer look

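In 60 sets of 4 libraries, each a gene or ratio in 1 condition, 5 had a library farther from the rest than Dixon's limit. Chance would give 3 for independent sets of continuous values. These sets share libraries and some hold very few counts, so 5 cannot be judged against 3. MtnA was at 338.9 CPM in starvation replicate 3, against 193 to 200 in the other starvation libraries. MtnB was at 0.0575 CPM in starvation replicate 2 against 0.0783 to 0.0802, MtnC at 0.0976 in food replicate 3 against 0 in the other food libraries, and Fer3HCH at 0.125 in food replicate 4 against 0.0390 to 0.0432. These 3 rest on at most 6 counts in a library. Fdx1 was at 6.57 CPM in food replicate 1, against 7.51 to 7.68 in the other food libraries.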

How the results depend on the processing

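Tsf1 and Fer1HCH kept their direction and call in all 18 alternatives. No tested member changed direction in any of them. MtnA and Fer2LCH kept their calls in 14 of 18, and MtnD and Tsf3 passed in none. Of the 2 members lower at an adjusted p under 0.05, 1 remained with upper-quartile factors, with no filter and with a replicate block. With the length trend taken out, Mvl lost its call and Tsf2 passed (edgeR adjusted p = 0.21 and 0.038). With each library left out in turn, 1 to 3 members were higher and 1 to 3 lower. edgeR's test against 2-fold called 0 members, with 1 at an unadjusted p under 0.05, where 1 was lower at 2-fold. Among the other metal-handling genes, 11 were lower with upper-quartile factors, against 18, and 12 to 22 with each library left out. Over all genes, 1210 were higher in the main analysis, against 2292 with upper-quartile factors (and 1543 lower, against 2012), 1937 with the length trend taken out, 1947 without starvation replicate 3, and 776 and 760 without food replicates 1 and 2. The cause of these moves was not tested. Whether the replicate numbers pair the samples was not settled. The deviations of same-numbered libraries correlated at 0.02, 0.06, 0.12 and 0.17 across genes. Those of libraries with different numbers correlated at -0.127 to 0.083. For replicates 2, 3 and 4 the same-numbered library gave the highest correlation in either direction, and for replicate 1 it did not. With the replicate block, 17 other metal-handling genes were lower and 3 higher, against 18 and 4. Fold changes of single genes in the metal-handling lists above are from all 8 libraries. Without starvation replicate 3 the log2 fold changes were -0.78 for ZnT77C, 0.39 for Fdx1, 0.21 for Ho and -0.565 for Fdx2. Each of these passed an edgeR adjusted p under 0.05. Depth limits MtnB, MtnC and Fer3HCH, which had at most 10 counts in a library.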
